A study of Mus musculus with 6 samples.

Results

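Messenger RNA of 4 major histocompatibility complex (MHC) class I genes, B2m, H2-K1, H2-D1 and H2-Bl, was described in single epithelial cells of the mouse jejunum. The genes were chosen by name, as those of the class I light chain, the classical heavy chains and a further class I sequence present in the data, and the 4 are among 6996 genes measured in either region and 5674 measured in both. The cells came from anterior jejunum (piece 3 of 12 equal pieces of the small intestine) and posterior jejunum (piece 7) of 3 mice of mixed CD-1:C57BL/6 background at 120 days of age, with 1 sample per region and mouse. The samples carry no named genotype or treatment, although the series concerns ID2, a helix-loop-helix protein, in enteroendocrine differentiation, and they carry no H2 haplotype either. Cells of villi and crypts were mixed at equal numbers, and living cells stained for the epithelial surface protein EpCAM were sorted singly into wells of plates for MARS-seq, which tags the 3′ end of each mRNA molecule with a unique molecular identifier (UMI).

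MHC class I molecules display peptides made inside a cell to CD8+ T cells, and natural killer cells read their amount on the surface. The heavy chain (H2-K1, H2-D1) binds the peptide in the endoplasmic reticulum and reaches the surface only together with the invariant light chain, beta-2-microglobulin (B2m). The light chain also serves several class I relatives, among them the neonatal Fc receptor and the thymus leukaemia antigen, which the intestinal epithelium of mice is known for. Interferons raise transcription of these genes through interferon-stimulated response elements and through the activator Nlrc5, and NF-κB acts on a site in classical heavy chain promoters.

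On the GRCm38 build B2m lies at chr2:122147686-122153083 on the plus strand, and the other 3 genes lie in the MHC on chromosome 17. H2-K1 lies at chr17:33996017-34000347 on the minus strand and H2-D1 at chr17:35262730-35267499 on the plus strand. H2-Bl lies at chr17:36080115-36084223 on the minus strand, and the GENCODE annotation calls it a polymorphic pseudogene, a locus that is intact in some strains only. The 250 bases before the start of transcription are shown for the 3 genes that have a RefSeq entry on GRCm38.p6, because these hold the elements through which interferon and NF-κB act. Each reads 5′ to 3′ on the strand of its gene, from chr2:122147437-122147686 for B2m, chr17:34000348-34000597 for H2-K1 and chr17:35262844-35263093 for H2-D1, and capitals mark the motifs. The RefSeq start of H2-D1 lies 364 bases inside the GENCODE gene span, that of B2m 1 base and that of H2-K1 0 bases, and distances are counted from the RefSeq start, the first of 2 listed for H2-K1.
B2m: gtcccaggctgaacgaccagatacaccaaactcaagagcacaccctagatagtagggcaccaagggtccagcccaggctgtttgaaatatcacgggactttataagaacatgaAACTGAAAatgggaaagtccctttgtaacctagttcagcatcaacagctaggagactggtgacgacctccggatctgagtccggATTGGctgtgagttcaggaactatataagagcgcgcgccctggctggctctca
H2-K1: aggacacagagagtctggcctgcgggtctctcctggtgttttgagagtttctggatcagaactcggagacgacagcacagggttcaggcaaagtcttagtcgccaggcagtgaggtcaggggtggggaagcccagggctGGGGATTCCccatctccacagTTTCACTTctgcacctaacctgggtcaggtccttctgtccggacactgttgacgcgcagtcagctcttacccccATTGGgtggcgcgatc
H2-D1: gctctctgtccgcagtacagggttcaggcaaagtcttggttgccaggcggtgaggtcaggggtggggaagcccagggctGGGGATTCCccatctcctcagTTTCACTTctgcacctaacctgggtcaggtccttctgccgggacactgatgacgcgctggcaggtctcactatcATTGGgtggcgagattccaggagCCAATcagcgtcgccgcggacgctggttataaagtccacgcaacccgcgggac
Searched on both strands, all 3 promoters held AANNGAAA, the core of the interferon-stimulated response element, as did 21.3% of 32851 RefSeq promoters of the same length. Its first base lay 137 bases before the start in B2m, on the strand of the gene (AACTGAAA), and 90 and 150 bases before it in H2-K1 and H2-D1, on the other strand (read here as TTTCACTT). H2-K1 and H2-D1 also held GGGGATTCC, the κB element of class I promoters, 111 and 171 bases before the start, as did 70 of all promoters (0.213%), and B2m did not hold these letters. The CCAAT box, held by 33.8% of promoters, lay once in B2m and in H2-K1 and at 2 places in H2-D1. The motifs did not overlap each other in these windows. Over 190 aligned bases the promoters of H2-K1 and H2-D1 were identical at 89.5%.

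The values held 2043 cells with 13248658 UMIs, a median of 3468 per cell and between 1640578 and 3157105 per sample, and 98% of the UMIs belonged to genes measured in both regions. Of these UMIs 50232 were of B2m, 15763 of H2-K1, 13482 of H2-D1 and 5590 of H2-Bl. Cell classes were built without any class I, class II, peptide loading, immunoproteasome or interferon-related gene, so that a class did not rest on the genes described. They comprised 970 enterocyte-like cells (47.5%, which absorb nutrients), 706 goblet-like cells (34.6%, mucus-secreting), 185 crypt progenitor-like cells (9.06%, stem and dividing cells), 80 enteroendocrine-like cells (3.92%, hormone-secreting), 66 Paneth-like cells (3.23%, antimicrobial) and 36 tuft-like cells (1.76%, chemosensory). Makeup and depth differed between samples. Goblet-like cells numbered 277 and 327 in the samples of mouse 1 and between 23 and 28 in the others, and median UMIs per cell were 5568 in enterocyte-like, 2042 in goblet-like and 11961 in crypt progenitor-like cells. One enterocyte-like cluster of 449 cells, led by the nuclear RNA Malat1 and the villus-tip enzyme Ada, had a median of 1408 UMIs, and a cluster of 148 enterocyte-like cells came from mouse 1 only. All 186 well barcodes recurred in more than 1 sample, as plates share them, and 0 full cell names did. Levels are UMIs per 10000 UMIs of a cell (CP10K), averaged over the cells of a class in a sample. Levels of different genes are per molecule tagged at its 3′ end and do not grow with transcript length. Fold changes are log2(mean CP10K + 0.2), with limma across all genes tested and Benjamini-Hochberg adjustment.

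All 4 genes were higher in enterocyte-like than in crypt progenitor-like cells, in 6 of 6 samples each. The fitted difference was smallest for the light chain and largest for H2-Bl, and the goblet-like cells lay between for the heavy chains and near the progenitors for B2m. B2m in enterocyte-like cells was 17.9, 61.3 and 37.0 CP10K in the anterior samples of mice 1, 2 and 3 and 22.1, 62.6 and 69.8 CP10K in the posterior ones. In crypt progenitor-like cells it was 8.84, 19.8 and 20.8 CP10K anterior and 12.6, 25.8 and 25.9 CP10K posterior. The groups overlap, because both samples of mouse 1 are low, but within every sample the enterocyte-like value was the higher one. B2m was thus higher by 1.16 ± 0.29 on the log2 scale (SE, adjusted p 0.00229, limma), and the 2 classes averaged 45.1 ± 22.4 and 19.0 ± 6.95 CP10K (SD, n = 6 each).

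H2-K1, a classical heavy chain, was 7.64, 18.4 and 14.4 CP10K in anterior and 8.63, 19.1 and 21.3 CP10K in posterior enterocyte-like cells. In crypt progenitor-like cells it was 3.22, 5.24 and 6.13 CP10K anterior and 3.81, 7.16 and 4.31 CP10K posterior. Within every sample the enterocyte-like value was the higher one, and H2-K1 was higher by 1.49 ± 0.32 (adjusted p 0.000511, limma). H2-D1, the other classical heavy chain, was 10.1, 12.3 and 11.4 CP10K in anterior and 9.90, 16.2 and 15.5 CP10K in posterior enterocyte-like cells. In crypt progenitor-like cells it was 4.17, 2.6 and 4.48 CP10K anterior and 3.70, 2.81 and 3.11 CP10K posterior. Here too the enterocyte-like value was the higher one within every sample, and H2-D1 was higher by 1.79 ± 0.26 (adjusted p 3.2e-06, limma).

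H2-Bl was 1.24, 11.5 and 10.9 CP10K in anterior and 0.729, 11.4 and 12.6 CP10K in posterior enterocyte-like cells. In crypt progenitor-like cells it was 0.159, 0.837 and 0.574 CP10K anterior and 0.113, 1.61 and 1.65 CP10K posterior. Both samples of mouse 1 lay far below the others in each class, and the groups overlap only through them. H2-Bl was higher by 2.73 ± 0.41 (adjusted p 5.45e-06, limma). In this comparison 14.8% of 5298 genes tested were called higher and the median over all of them was 0.11. Enterocyte-like above crypt progenitor-like in 6 of 6 samples held for 20.4% of genes.

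**Figure D1:**
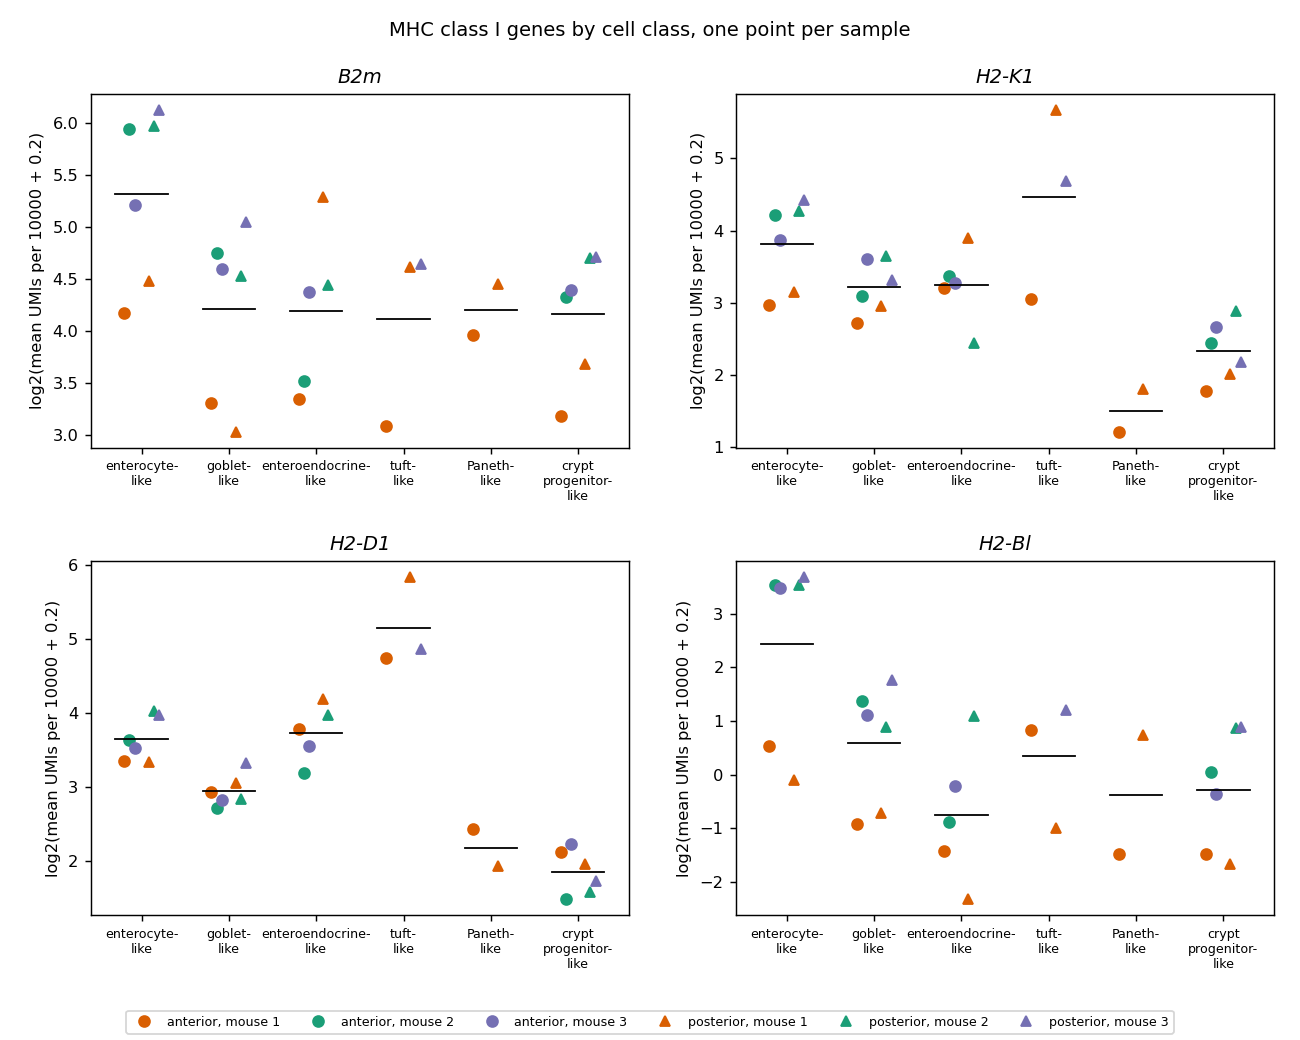
Level of each class I gene (CP10K, log axis) by cell class, with 1 point per sample (at least 5 cells), anterior and posterior marked apart and the bar at the mean. Enterocyte-like cells averaged 45.1 CP10K of B2m, and tuft-like cells averaged 37.5 CP10K of H2-D1.

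In goblet-like cells the heavy chains were raised over the progenitors and the light chain was not called. H2-K1 was 6.36, 8.30 and 12.0 CP10K in anterior and 7.56, 12.3 and 9.77 CP10K in posterior goblet-like cells, and it was higher than in progenitors by 0.90 ± 0.32 (adjusted p 0.0235, limma). That call was lost without anterior mouse 3 (adjusted p 0.0611, limma) or posterior mouse 3 (adjusted p 0.0562, limma). H2-D1 was 7.41, 6.36 and 6.92 CP10K anterior and 8.09, 6.97 and 9.87 CP10K posterior, higher than in progenitors by 1.10 ± 0.26 (adjusted p 0.000928, limma). B2m was 9.71, 26.6 and 24 CP10K anterior and 7.96, 22.9 and 32.9 CP10K posterior, a difference from progenitors of 0.046 ± 0.29 with an interval from -0.53 to 0.63. H2-Bl was 0.331, 2.40 and 1.95 CP10K anterior and 0.405, 1.66 and 3.18 CP10K posterior, and its difference of 0.87 ± 0.41 did not pass (adjusted p 0.0938, limma). In this comparison 10.4% of genes were called higher and 27.7% lower, with a median of -0.33, so the 2 heavy chains rose against a downward shift. Goblet-like above crypt progenitor-like in 6 of 6 samples held for H2-K1, H2-D1 and H2-Bl, and for 9.3% of genes.

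Enterocyte-like cells exceeded goblet-like cells in B2m by 1.11 ± 0.29 (adjusted p 0.00494, limma) and in H2-Bl by 1.86 ± 0.41 (adjusted p 0.00121, limma). The heavy chain differences, 0.59 ± 0.32 for H2-K1 and 0.70 ± 0.26 for H2-D1, did not pass (adjusted p 0.198 and 0.0569, limma). That of H2-D1 lies near the threshold and passed in 8 of 18 settings, among them without posterior mouse 1 (adjusted p 0.0456, limma). All 4 were nevertheless higher in enterocyte-like cells in 6 of 6 samples, as were 24.5% of genes. The background was 15.7% of genes called higher and 3.25% lower, with a median over all genes of 0.47.

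Tuft-like cells had the highest mean heavy chain levels of the classes, from few cells. With at least 5 cells, 3 samples gave a value: anterior mouse 1 (9 cells), posterior mouse 1 (15 cells) and posterior mouse 3 (5 cells). H2-D1 was 26.6, 57.1 and 28.9 CP10K in these samples, each above the highest value of any enterocyte-like, goblet-like or progenitor-like sample, 16.2 CP10K. The share of all genes with such a separation was not counted. Against the mean of those 3 classes H2-D1 was higher by 2.25 ± 0.30 (adjusted p 1.46e-06, limma). H2-K1 was 8.06, 51.0 and 25.6 CP10K and was higher by 1.51 ± 0.36 (adjusted p 0.00288, limma), but anterior mouse 1 lay within the range of the other classes, and without posterior mouse 1 the difference was 0.86 (adjusted p 0.105, limma). B2m was not called. It was 8.26, 24.3 and 24.8 CP10K, a difference of -0.22 ± 0.33 (adjusted p 0.629, limma). In the samples left out for too few tuft-like cells, B2m was 15.2 CP10K in anterior mouse 2 (2 cells), 53.1 CP10K in anterior mouse 3 (4 cells) and 104 CP10K in posterior mouse 2 (1 cell). In the 3 tested samples H2-Bl was 1.57, 0.30 and 2.10 CP10K, a difference of 0.092 ± 0.47 (adjusted p 0.902, limma). Of all genes 7.27% were called higher and 21.5% lower, with a median of -0.54.

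Enteroendocrine-like cells had more H2-D1 and less H2-Bl than the mean of the 3 large classes. H2-D1 was 13.6, 8.90 and 11.5 CP10K in anterior mice 1, 2 and 3 and 18.0 and 15.6 CP10K in posterior mice 1 and 2, higher than the mean of the 3 large classes by 0.94 ± 0.23 (adjusted p 0.00517, limma). H2-Bl was 0.170, 0.341 and 0.667 CP10K anterior and 0 and 1.93 CP10K posterior, and it fell by 1.47 on the log2 scale (SE 0.37, adjusted p 0.00555, limma). Without anterior mouse 2 the H2-Bl call was lost (adjusted p 0.0537, limma). The mean it is set against is carried by the enterocyte-like cells. Against crypt progenitor-like cells alone the H2-Bl difference was -0.23, with 3 of 5 samples higher (exact sign-flip permutation p 0.5). B2m was 9.98, 11.3 and 20.5 CP10K anterior and 38.9 and 21.5 CP10K posterior, a difference of -0.25 ± 0.25 (adjusted p 0.526, limma) in which posterior mouse 1 stood highest. Without posterior mouse 1 the B2m difference was -0.67 and passed (adjusted p 0.0273, limma). H2-K1 was 9.03, 10.2 and 9.49 CP10K anterior and 14.7 and 5.23 CP10K posterior, a difference of 0.15 ± 0.28 (adjusted p 0.75, limma). Of all genes 5.15% were called higher and 12.3% lower, with a median of -0.25. The values rest on 46, 8 and 6 anterior and 10 and 7 posterior cells. Paneth-like cells numbered at least 5 in mouse 1 only and were not tested. There H2-D1 was 5.19 CP10K anterior and 3.62 CP10K posterior, H2-K1 2.11 and 3.27 CP10K, and B2m 15.4 and 21.6 CP10K. Anterior mouse 2 had 3 Paneth-like cells, with H2-K1 at 9.12, H2-D1 at 0.768 and B2m at 14.5 CP10K, from 7, 1 and 13 UMIs.

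Ordered by mean level, H2-D1 ran from tuft-like (37.5 ± 17.0 CP10K, SD, n = 3) through enteroendocrine-like (13.5 ± 3.53, n = 5), enterocyte-like (12.5 ± 2.71, n = 6), goblet-like (7.60 ± 1.25, n = 6) and Paneth-like (4.40 ± 1.11, n = 2) to crypt progenitor-like cells (3.48 ± 0.760, n = 6). Enteroendocrine-like and enterocyte-like cells are neighbours, with a mean difference of 0.16 on the log2 scale and 3 of 5 samples higher in enteroendocrine-like cells. The exact sign-flip permutation test gave p 0.688, where 5 samples cannot go below 0.0625. H2-K1 ran from tuft-like (28.2 ± 21.6) through enterocyte-like (14.9 ± 5.70), enteroendocrine-like (9.73 ± 3.38), goblet-like (9.38 ± 2.41) and crypt progenitor-like (4.98 ± 1.49) to Paneth-like cells (2.69 ± 0.819), in CP10K with the same n. For B2m the enterocyte-like class had the highest mean, and the other means lay between 18.5 CP10K in Paneth-like and 20.7 CP10K in goblet-like cells. These orders pool unlike samples, since the Paneth-like means come from mouse 1 alone and 2 of the 3 tuft-like values do. Within mouse 1 the B2m order differs. There Paneth-like cells (15.4 and 21.6 CP10K) lay above goblet-like (9.71 and 7.96) and crypt progenitor-like cells (8.84 and 12.6), and posterior tuft-like cells (24.3) above posterior enterocyte-like cells (22.1). Posterior enteroendocrine-like cells (38.9, from 10 cells) lay higher still. Anterior tuft-like (8.26) and enteroendocrine-like cells (9.98) lay below anterior enterocyte-like cells (17.9). H2-Bl averaged 8.06 ± 5.51 CP10K in enterocyte-like cells and at most 1.65 CP10K in any other class.

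The balance between light and heavy chains was set out as a ratio in each sample. The mean CP10K of B2m over the summed mean CP10K of H2-K1 and H2-D1 was 0.306 ± 0.129 in tuft-like (SD, n = 3), 0.845 ± 0.315 in enteroendocrine-like (n = 5), 1.55 ± 0.402 in enterocyte-like, 1.19 ± 0.516 in goblet-like and 2.24 ± 0.806 in crypt progenitor-like cells (n = 6 each). The ratio was lower in enterocyte-like than in progenitor-like cells by 0.49 on the log2 scale and lower in goblet-like cells by 0.96, each in 6 of 6 samples. Over 14 comparisons of this ratio and of the H2-K1 share, exact sign-flip permutation tests gave an adjusted p of 0.109 at the lowest. The raw p was 0.03125 there, the smallest that 6 samples allow. With so few samples no outcome could have passed after adjustment over 14 comparisons, so these tests cannot decide whether the ratios differ. Tuft-like cells lay below enterocyte-like cells in 3 of 3 samples (mean difference -2.18, exact permutation p 0.25, the smallest that 3 samples allow). The tuft-like cells left out as too few had ratios of 0.157 in anterior mouse 2, 0.706 in anterior mouse 3 and 0.62 in posterior mouse 2.

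The share of H2-K1 among the summed UMIs of both heavy chains was 38.4%, 60.0% and 57.4% in anterior and 45.4%, 58.2% and 59.4% in posterior enterocyte-like cells. Mouse 1 was the lowest of the mice in both regions. The share averaged 53.1% ± 9.02 in enterocyte-like, 54.4% ± 8.78 in goblet-like and 58.7% ± 11 in crypt progenitor-like cells (SD, n = 6 each), and 43.8% ± 10.1 in enteroendocrine-like cells (n = 5). Between regions, exact permutation of the 6 samples gave two-sided p of 0.7 in enterocyte-like, 0.6 in goblet-like and 0.6 in progenitor-like cells. It cannot decide whether the regions differ, as 0.1 is the smallest p possible and the pairing by mouse is left out. Within each mouse the progenitor-like share was higher posteriorly (42.9%, 66.9% and 58.8% anterior, 49.8%, 72.9% and 60.7% posterior). Mouse 2 in enterocyte-like and mouse 1 in goblet-like cells (44.2% anterior, 44.1% posterior) went the other way. The paired difference was not tested. A read of the last 500 bases of B2m, H2-K1 or H2-Bl could rarely come from another gene, and one of H2-D1 could more often. Of 451 windows of 50 bases, 2 of H2-K1 also occurred in H2-D1, and 0 of B2m and 0 of H2-Bl occurred in another gene. Of the H2-D1 windows 43 (9.53%) did. These windows are of the reference genome. Alleles of CD-1 mice can differ from it, so an allele's level and its match to the reference cannot be told apart.

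**Figure D2:**
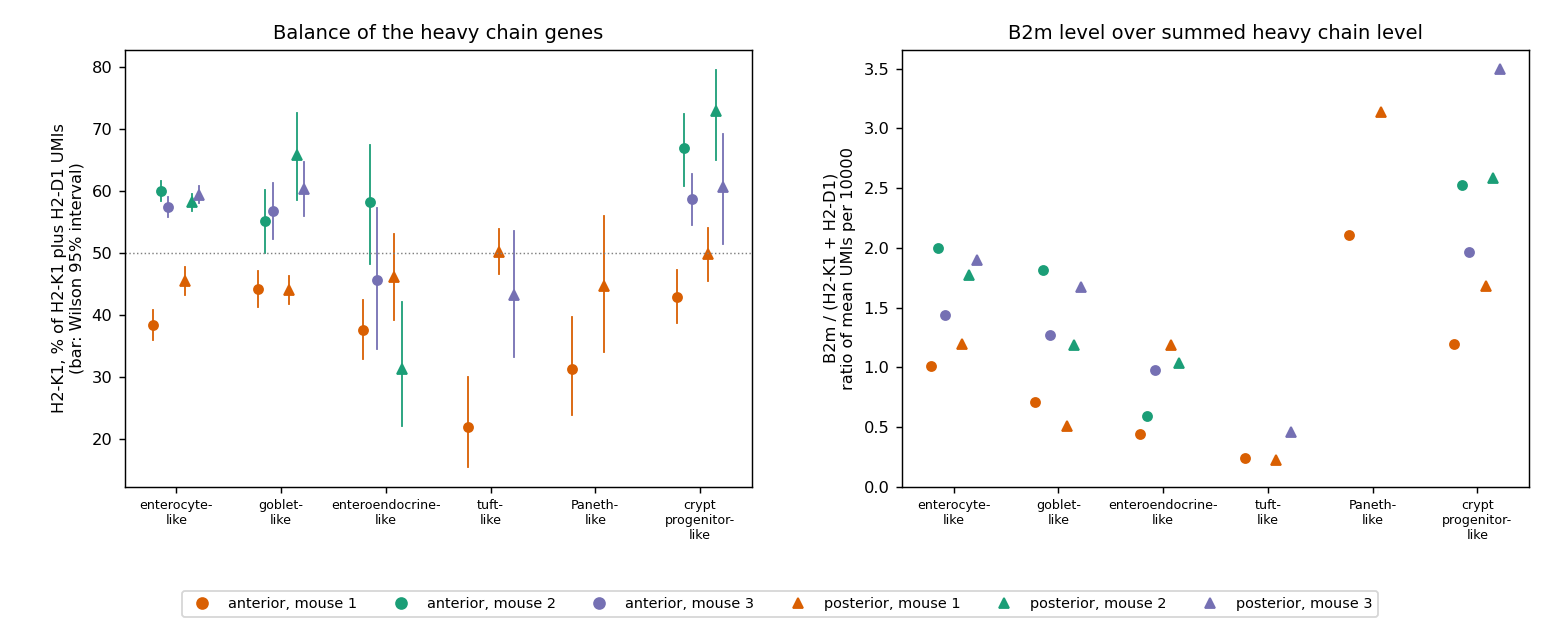
Share of H2-K1 among H2-K1 and H2-D1 UMIs (percent) and mean B2m CP10K over summed heavy chain CP10K by class, with 1 point per sample and Wilson 95% intervals on the shares. The B2m ratio averaged 0.306 in tuft-like and 2.24 in crypt progenitor-like cells.

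The share of cells with at least 1 UMI was compared at equal depth. With each cell thinned to 1000 UMIs, H2-D1 was found in 81.5% ± 4.63 of tuft-like (SD over 3 samples; 96.3% unthinned), 65.6% ± 16.7 of enteroendocrine-like (94.9%), 60.2% ± 5.58 of enterocyte-like (81.1%), 41.7% ± 3.74 of goblet-like (69.0%) and 28.6% ± 11.6 of crypt progenitor-like cells (86.2%). Median depths were 5568 UMIs in enterocyte-like and 11961 UMIs in crypt progenitor-like cells, whose order in H2-D1 shares is reversed without thinning. B2m was found in 82.1% ± 8.65 of enterocyte-like and 79.0% ± 13.5 of crypt progenitor-like cells. H2-Bl was found in 38.4% ± 24.2 of enterocyte-like, 10.7% ± 6.94 of goblet-like, 5.86% ± 4.83 of crypt progenitor-like, 3.30% ± 6.22 of enteroendocrine-like and 2.22% ± 3.85 of tuft-like cells. Thinning left out 113 enterocyte-like and 94 goblet-like cells with fewer than 1000 UMIs and 0 crypt progenitor-like cells.

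Along the villus, H2-K1, H2-D1 and H2-Bl were higher towards the top, and B2m was not called. Enterocyte-like cells of each sample were split into 3 equal groups (bottom, middle and top) by a score of villus-top minus villus-bottom landmark genes, none of which is a class I gene. H2-Bl at the bottom was 0.22, 8.83 and 6.12 CP10K anterior and 0.589, 8.96 and 6.50 CP10K posterior. In the middle it was 1.31, 12.3 and 12.8 CP10K anterior and 0.346, 11.8 and 19.7 CP10K posterior, and at the top 2.21, 13.3 and 13.8 CP10K anterior and 1.27, 13.5 and 11.6 CP10K posterior. The top exceeded the bottom in 6 of 6 samples, by 1.09 ± 0.30 (adjusted p 0.01, limma).

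H2-K1 was 5.00, 11.8 and 12.7 CP10K anterior and 5.25, 14.8 and 15.4 CP10K posterior at the bottom. In the middle it was 7.14, 21.9 and 14.3 CP10K anterior and 5.90, 20.9 and 27.5 CP10K posterior, and at the top 10.9, 21.5 and 16.2 CP10K anterior and 15, 21.7 and 21 CP10K posterior. It was higher at the top in 6 of 6 samples, by 0.79 ± 0.25 (adjusted p 0.0246, limma). H2-D1 was 8.17, 8.81 and 9.61 CP10K anterior and 5.19, 12.7 and 12.6 CP10K posterior at the bottom. In the middle it was 11.5, 11.3 and 11.2 CP10K anterior and 8.87, 17.7 and 15 CP10K posterior, and at the top 10.6, 16.6 and 13.3 CP10K anterior and 15.9, 18.2 and 18.9 CP10K posterior. It averaged 9.52 ± 2.86, 12.6 ± 3.19 and 15.6 ± 3.13 CP10K at the bottom, middle and top (SD, n = 6), a difference of 0.73 ± 0.25 between top and bottom (adjusted p 0.0391, limma) that also held in 6 of 6 samples. B2m was 14.4, 46.9 and 44.9 CP10K anterior and 15.5, 64.3 and 60.3 CP10K posterior at the bottom. In the middle it was 19.5, 74.8 and 35.5 CP10K anterior and 16.0, 57.3 and 84.3 CP10K posterior, and at the top 19.8, 62.2 and 30.6 CP10K anterior and 35.4, 66.1 and 65.0 CP10K posterior. Anterior mouse 3 was the sample that was lower at the top. B2m averaged 41.0 ± 21.6, 47.9 ± 28.7 and 46.5 ± 20.3 CP10K at the bottom, middle and top, a difference of 0.27 ± 0.25 (adjusted p 0.445, limma), higher in 5 of 6 samples. In this comparison 9.22% of 4956 genes were called higher and 12.9% lower, with a median of -0.11. Top above bottom in 6 of 6 samples held for 7.66% of genes.

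These position calls lie near the threshold. The call of H2-D1 was lost when any 1 of the 6 samples was left out (adjusted p 0.057 to 0.0996, limma), that of H2-K1 without anterior mouse 1 (adjusted p 0.0765, limma) or anterior mouse 2 (adjusted p 0.0663, limma), and that of H2-Bl without anterior mouse 1 (adjusted p 0.0584, limma). Depth moved with position. The low-depth cluster of 449 cells led by the nuclear RNA Malat1 moved with it too. It held 84.1%, 63.8% and 90.8% of the anterior and 25.9%, 63.3% and 65.0% of the posterior top groups of mice 1, 2 and 3. Of the bottom groups it held 0%, 17.0% and 18.5% anterior and 0%, 33.8% and 11.7% posterior. Median UMIs per cell ran from 1051.5 to 8945 over the top groups of the samples and from 8978 to 12531 over the bottom groups. Without that cluster all 4 genes passed, with differences of 1.25 for B2m, 1.47 for H2-K1, 1.27 for H2-D1 and 1.66 for H2-Bl (limma, highest adjusted p 0.000368, for B2m). Over 16 settings, among them cells with at least 2000 UMIs, H2-Bl was called in 14, H2-K1 in 12, H2-D1 in 7 and B2m in 2. The 3 groups were cut anew in that setting and in the setting without the cluster, so they hold other cells. The part of depth was not tested beyond these settings.

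**Figure D3:**
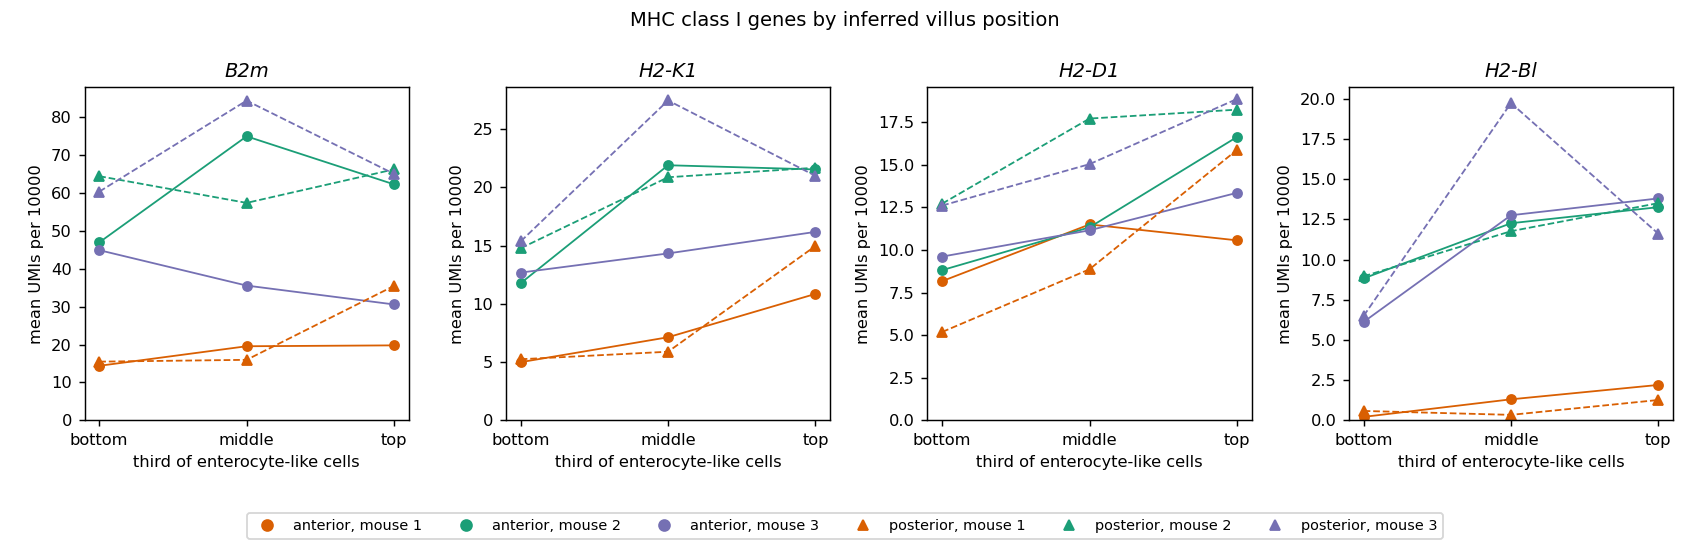
Level of each class I gene (CP10K) in the bottom, middle and top groups of enterocyte-like cells, with 1 line per sample. H2-Bl averaged 5.20, 9.70 and 9.28 CP10K and H2-D1 9.52, 12.6 and 15.6 CP10K over the 6 samples.

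Between the regions none of the 4 genes was called in enterocyte-like, goblet-like or crypt progenitor-like cells (limma, 0 of 4 in each, also at an unadjusted p under 0.05, with adjusted p from 0.995 to 1.00). Called genes made up 0% of 5032, 0.0233% of 4290 and 0% of 4847 tested, and 228, 130 and 241 genes had an unadjusted p under 0.05. In enterocyte-like cells B2m averaged 38.7 ± 21.8 CP10K anterior and 51.5 ± 25.7 CP10K posterior (SD, n = 3 each), a difference of -0.42 with an interval from -1.69 to 0.86 on the log2 scale. The interval thus covers a wide range in both directions. H2-K1 averaged 13.5 ± 5.44 CP10K anterior and 16.3 ± 6.76 CP10K posterior (difference -0.26, interval -1.30 to 0.78). H2-D1 averaged 11.2 ± 1.10 CP10K anterior and 13.9 ± 3.45 CP10K posterior (difference -0.27, interval -1.06 to 0.52). H2-Bl differed by 0.14 (interval -2.13 to 2.41), the widest interval of the 4. In goblet-like cells the differences lay between -0.25 and 0.015, and in progenitor-like cells between -0.62 and 0.19. Two-sided exact permutation tests over samples gave p between 0.2 and 1 for all 12 gene and class pairs, where 3 against 3 cannot go below 0.1. These permutations leave out the pairing by mouse. Paired by mouse, B2m was lower anteriorly in 3 of 3 mice in enterocyte-like (-0.91 to -0.030) and crypt progenitor-like cells (-0.50 to -0.31), H2-K1 in enterocyte-like (-0.56 to -0.052) and H2-D1 in goblet-like cells (-0.50 to -0.12). Such a sign in 3 of 3 mice held for 11.7% of genes in enterocyte-like, 12.3% in goblet-like and 11.3% in crypt progenitor-like cells. The class and position differences were not called as different between regions either (limma interaction, 0 of 4 genes in each of 4 tests, also at an unadjusted p under 0.05).

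**Figure D4:**
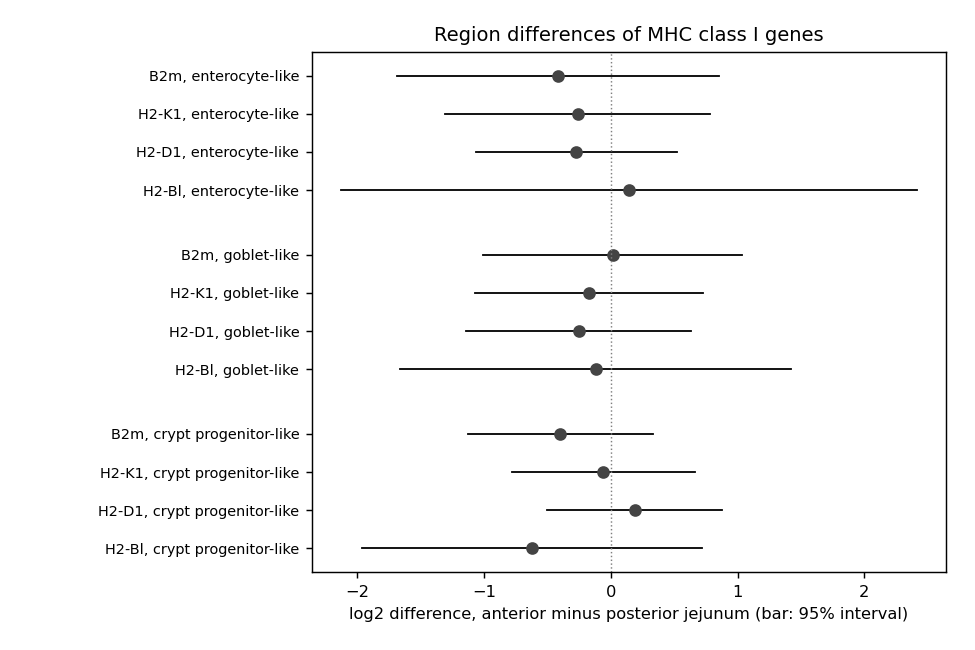
Anterior minus posterior difference of each class I gene (log2, with its 95% interval) in enterocyte-like, goblet-like and crypt progenitor-like cells. All 12 intervals include 0.

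Mouse 1 stood below the other mice in 3 of the 4 genes. It had the lowest B2m, H2-K1 and H2-Bl of the 3 mice in each of the 3 large classes and in both regions, 6 of 6 times. The ratio of mouse 2 or mouse 3 to mouse 1 lay between 2.04 and 4.13 for B2m, between 1.13 and 2.47 for H2-K1 and between 3.61 and 17.3 for H2-Bl. H2-D1 did not follow, with ratios from 0.625 to 1.64 and mouse 1 lowest in 2 of 6. This pattern was noticed after the values were seen and no test was made between mice. Of 2794 genes with sufficient level 14 (0.501%) had mouse 1 lowest in 6 of 6. Apart from the 3 class I genes they were Adh6a, Apoa4, Capns1, Cox6a1, Gm11953, Ifi27l2b, Mgam, Psmb10, Rnpep, Sectm1b and Sult1b1, of which Psmb10 is a subunit of the immunoproteasome. In the 3 large classes the same mouse had the lower ratio of B2m to heavy chain CP10K. It was at most 1.19 in its enterocyte-like, 0.705 in its goblet-like and 1.68 in its progenitor-like cells, and at least 1.44, 1.19 and 1.96 in those of mice 2 and 3. In enteroendocrine-like cells mouse 1 did not stand apart, with ratios of 0.440 anterior and 1.19 posterior. Mice 2 and 3 had 0.590 and 0.974 anterior there, and mouse 2 had 1.03 posterior. The enterocyte-like cells of mouse 1 also sat mostly in a different cluster. Of them 81 of 133 anterior and 67 of 83 posterior cells belonged to the 148-cell cluster that holds 0 cells of mice 2 and 3, led by Mt2 and Reg3b and left unnamed when clusters were named against the mean of other cells. An enterocyte-like cluster of 66 cells, which holds 0 cells of mouse 1, was left unnamed in that setting too. Mouse 1 also held most goblet-like cells and more plates, and it had plasma cell transcripts. Summed Jchain, Igkc and Igha, which were measured in anterior samples only, were at 15.8 CP10K in its enterocyte-like and 43.3 CP10K in its goblet-like cells, against at most 0.0484 CP10K in any class of mice 2 and 3. The part of any of these in the levels was not tested.

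Of other cells that carry much class I, few markers could be read in both regions. Of 14 markers of T cells and intraepithelial lymphocytes 1 was measured in both, Cd8a, at 0.0921 to 0.434 CP10K in enterocyte-like cells, and it ranged from 0.0217 to 0.448 CP10K at the villus top and from 0.0785 to 0.406 CP10K at the bottom. Of 8 myeloid markers 0 were measured in both regions, and of 10 stromal and endothelial markers 1, Pecam1, at 0.121 to 2.37 CP10K at the top and 0.0875 to 1.06 CP10K at the bottom. Their part in the levels was not tested.

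Class I relatives and class II genes were mostly higher in enterocyte-like than in progenitor-like cells, and no gene of peptide loading or the immunoproteasome was called. Of 27 further class I genes 6 were tested between enterocyte-like and crypt progenitor-like cells, and 5 were higher, with a median of 2.05 against 0.11 over all genes, where 28.5% of genes were called in either direction. They included H2-Q2 (2.59 ± 0.47, adjusted p 8.33e-05, limma), H2-Q1 (2.23 ± 0.43), H2-T3, the thymus leukaemia antigen that binds the CD8αα homodimer (2.08 ± 0.44), and H2-T23, the Qa-1 antigen read by natural killer receptors (2.03 ± 0.47). H2-T3 averaged 2.96 ± 0.890 CP10K in enterocyte-like and 0.576 ± 0.299 CP10K in progenitor-like cells (SD, n = 6 each). Of 10 peptide loading genes, which carry, trim or fold the peptide cargo, 0 were called by limma (median 0.21), and the smallest p belonged to Sec61g of the translocon (-0.92 ± 0.37, adjusted p 0.0595) and Tapbp, the loading factor tapasin (0.85 ± 0.37, adjusted p 0.0867). Of 5 immunoproteasome genes, the interferon-inducible protease subunits, 0 were called (median 0.24). Of 14 constitutive proteasome genes 2 were lower, Psmb4 (-1.09 ± 0.37) and Psmb1 (-0.94 ± 0.34), where 13.7% of all genes were called lower. Of 13 regulators 1 was higher, Stat2, the transducer of type I and III interferon signals (1.74 ± 0.59, adjusted p 0.0253, limma). Over all genes 14.8% were called higher. Neither the proteasome count nor the regulator count stands out from these shares. The medians of the 2 lists nevertheless lay at -0.94 for the constitutive proteasome and 0.65 for the regulators, against 0.11 over all genes.

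Interferon-stimulated genes went both ways. Of 17 tested 10 were higher and 2 lower in enterocyte-like cells (median 1.36). Irf7, a transcription factor of the interferon response, averaged 5.71 ± 4.22 CP10K in enterocyte-like and 0.275 ± 0.289 CP10K in progenitor-like cells (difference 3.27 ± 0.48, adjusted p 3.46e-06, limma), and Isg15, a ubiquitin-like modifier, was higher by 2.77 ± 0.55. Ifitm3 and Ifitm2, membrane proteins that restrict virus entry, were lower by 3.64 and 2.77 on the log2 scale, so the list does not move as 1 block. All 7 MHC class II genes tested were higher (median 1.51), among them Cd74, the invariant chain (1.76 ± 0.48). Goblet-like cells had 7 of 17 interferon-stimulated genes higher and 2 lower than progenitors (median 0.83 against -0.33 over all genes, of which 38.1% were called), 0 of 7 class II genes called, 3 of 5 immunoproteasome genes lower and 14 of 14 constitutive proteasome genes lower. In the comparison of enterocyte-like with goblet-like cells (18.9% of genes called) 3 of 6 class I relatives were higher, led by Fcgrt, the heavy chain of the neonatal Fc receptor (1.96 ± 0.38, adjusted p 0.000282, limma), and 7 of 7 class II genes.

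**Figure D5:**
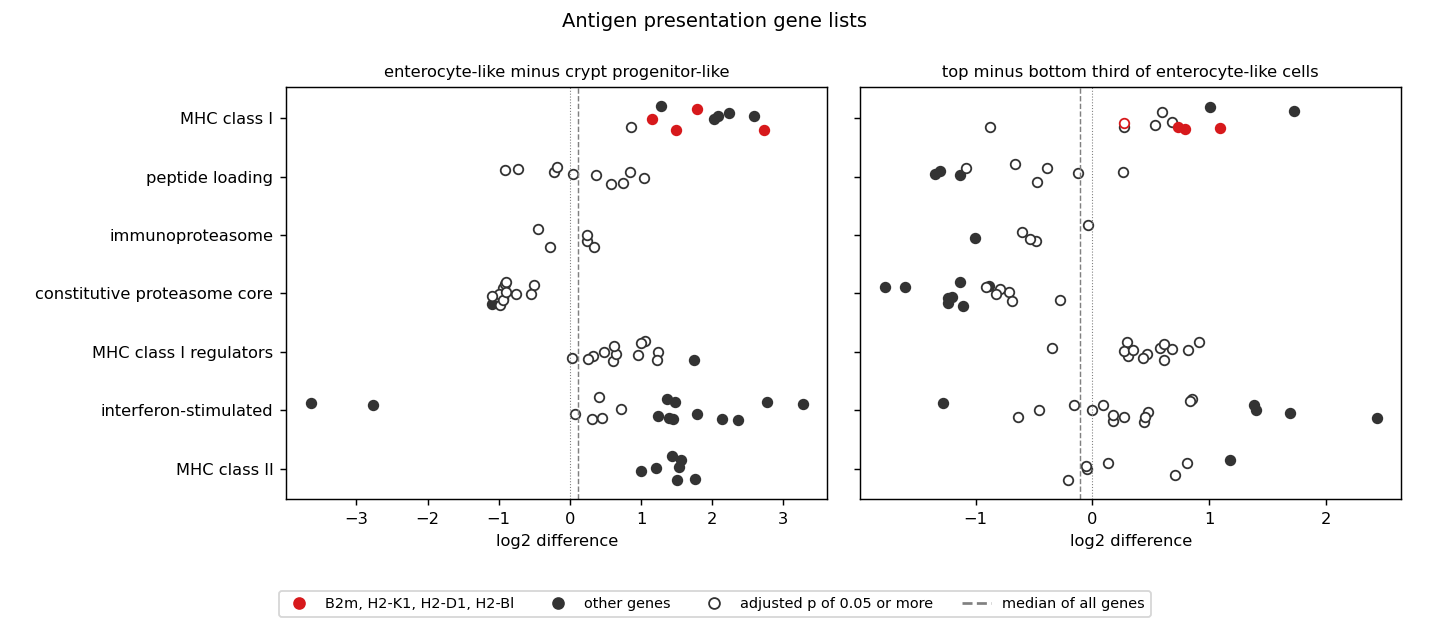
Difference (log2) of every tested gene of the class I, peptide loading, proteasome, regulator, interferon-stimulated and class II lists for enterocyte-like minus crypt progenitor-like cells (left) and for villus top minus bottom (right). Filled points passed adjusted p 0.05, red points are the 4 genes, and the dashed line is the median of all genes. Of the interferon-stimulated genes 10 of 17 were higher in enterocyte-like than in crypt progenitor-like cells.

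In the 2 rarer classes with high H2-D1, calls over all genes ran mostly in the lower direction, as given above, and the related genes are read against that. In tuft-like cells (28.7% of genes called) 0 of 6 class I relatives were higher and 3 lower, among them H2-T3 (-1.96 ± 0.50), and 3 of 10 loading genes were lower, led by the chaperone Canx (-2.03 ± 0.55). Irf7 was higher by 3.44 ± 0.54 (adjusted p 2.97e-05, limma) and was 1 of 4 interferon-stimulated genes higher, with 1 lower, of 17 tested. Stat2 was higher by 2.97 ± 0.68, while the interferon gamma receptor chain Ifngr1 was lower (-2.53 ± 0.57) and 4 of 7 class II genes were lower. In enteroendocrine-like cells (17.4% of genes called) 3 of 5 immunoproteasome genes were lower, namely Psmb9 (-1.37 ± 0.38), Psmb8 (-1.28 ± 0.39) and Psmb10 (-0.93 ± 0.32), and 2 of 6 class I relatives were lower. At the villus top (22.1% of genes called) 2 of 7 relatives were higher than at the bottom, H2-Q4 (1.73 ± 0.38) and H2-T23 (1.01 ± 0.34). There 8 of 14 constitutive proteasome genes, 3 of 9 loading genes and 1 of 5 immunoproteasome genes, Psmb9 (-1.0 ± 0.35), were lower. Irf7 (1.69 ± 0.33), Isg15 (1.39 ± 0.42) and Oasl1, an antiviral oligoadenylate synthetase-like protein (2.44 ± 0.41), were among 4 of 18 interferon-stimulated genes higher at the top, where 9.22% of all genes were, and Ifitm2 was lower (-1.28, adjusted p 0.0165, limma). Between the regions 0 genes of any of these lists were called, where at most 0.0233% of all genes were in any class. The median anterior minus posterior difference of the class II genes was nevertheless -2.07 in enterocyte-like, -1.49 in goblet-like and -1.88 in crypt progenitor-like cells. Over all genes it was 0.080, 0.018 and 0.050. The class II list as a whole was not tested.

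Over 28 values of sample by class, the genes most like B2m among 3463 included Dnase1, an endonuclease of the villus tip (Pearson r 0.66), Clca4b, the digestive enzyme Mgam, Slx1b, Bst1 and St3gal4. Those most like the sum of H2-K1 and H2-D1 were Cdhr2 (0.89) and Cdhr5 (0.85), the cadherins that link microvilli, followed by Crip1, Efhd2, the cell cycle inhibitor Cdkn1a, the actin bundler Espn, 4930539E08Rik and Gabarap (0.76). Of the 4 genes H2-K1 and H2-D1 varied most alike (r 0.77), then B2m and H2-Bl (0.72), and H2-D1 and H2-Bl least (0.16). These are descriptions across values that share libraries and depth.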

How the data were processed

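Per the labels' protocols, EpCAM+ cells were sorted and sequenced by MARS-seq. Per the submitters' processing notes, R 3.5.1, the aligner STAR 2.6.1b, cutadapt 1.18, bcl2fastq and UMI-tools 1.0.0 are named, with GRCm38/mm10, and other steps are not given in the sources used here. The authors deposited log2 values, in 1 table per region, each made separately. Tested on the values, each was log2(UMIs/size factor + 1) minus a linear correction per gene. Undoing it gave whole UMI counts for 100% of values at a tolerance of 0.01, of which 82.9% anterior and 83.6% posterior were 0. Columns without a sample numbered 0.

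Cells were clustered jointly (14 Leiden clusters at resolution 1, from 15 neighbours on 25 principal components of 1500 variable genes) with Python 3.11.15, leaving out all class I, class II and interferon-related lists. A cluster was named from marker lists when at least 3 markers were raised, a rule settled after the clusters were seen. No doublet caller was run, since wells held single sorted cells. Class means with at least 5 cells entered limma 3.58.1 (eBayes with trend, genes averaging 0.2 CP10K or more), with sample as a block between classes and positions and none between regions. Position comparisons left out 17 landmark genes. The fits were tested on simulated counts with known changes, without an effect shared by the samples of a mouse. Changes of 1 on the log2 scale were recovered for 36.2% of changed genes between regions in enterocyte-like cells. Between enterocyte-like and crypt progenitor-like cells 55.7% were, and between top and bottom 29.7%. Changes of 2 were recovered for 95.05%, 97.65% and 95.45%. A smaller change can thus be missed. Regions of 1 mouse pair the samples, as titles give the mouse. Deviations of same-numbered samples correlated at 0.50, 0.087 and 0.34 in enterocyte-like cells. Named genes were the 4 described, up to 4 called genes of each list by smallest p or otherwise 2, and the 8 most alike, some of which are not reported here. The genes and lists were chosen with earlier results of these data known. Mice are separate animals, and intervals on counts cover counting error only. Alternatives covered the pseudocount, filter, summing, cell minimum, naming, clustering, depth, block and each sample left out.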

Additional observations from a re-analysis of the deposited data

How the results depend on the processing

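Of 636 values of a gene in a comparison under another setting, 550 kept their direction and side of the threshold, 24 lost the call, 17 gained it and 45 changed sign, the last all among differences that were not called. The cause of these changes was not tested. Enterocyte-like against crypt progenitor-like calls held in 18 of 18 settings for H2-K1, H2-D1 and H2-Bl and in 17 of 18 for B2m, which was at 0.40 (adjusted p 0.267, limma) on the deposited log2 values. With the mouse as a replicate block the regional adjusted p lay between 0.765 and 0.996 (limma), and 0 of 4 genes were called in any class, as without it. Called genes over the whole table between regions in enterocyte-like cells numbered 0 to 1673, the highest on the deposited values, whose region tables were made separately.

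The number of the 4 genes called between regions in enterocyte-like cells was 1 on the deposited values (H2-K1, -0.95) and 0 as reported. Leaving out 1 sample gave 1 to 2 for goblet-like against progenitor-like, 1 to 3 for enteroendocrine-like, 1 to 2 for tuft-like and 0 to 2 for top against bottom. Enterocyte-like against goblet-like had 4 with at least 20 cells, 4 with clusters named against the mean of other cells, and 1 on the deposited values. Enteroendocrine-like had 0 with at least 20 cells, where 1 sample remains. Top against bottom had 1 without mouse 1 and 0 with 2 groups of cells in place of 3.

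Sign changes of regional differences in enterocyte-like cells were those of H2-Bl, at -0.18 with summed UMIs, -0.10 without mouse 1, -0.21 in cells with at least 2000 UMIs, -0.17 without the low-depth cluster, -0.028 on deposited values and -0.038 at resolution 0.5. With 1 sample left out H2-Bl ran from -1.10 to 1.14, B2m from -0.94 to 0.052 and H2-K1 from -0.66 to 0.097. In goblet-like cells B2m was at -0.063 (summed), -0.12 (without mouse 1) and -0.18 (deposited), H2-D1 at 0.16 (summed) and 0.11 (2000 UMIs), and H2-Bl at 0.075 (summed) and 0.62 (2000 UMIs). With 1 sample left out B2m ran from -0.57 to 0.47, H2-K1 from -0.41 to 0.040 and H2-Bl from -0.80 to 0.60. In progenitor-like cells, at least 20 cells gave B2m 0.11, H2-K1 0.22 and H2-Bl 0.75. H2-K1 was at 0.027 without mouse 1 and ran from -0.24 to 0.21 with 1 sample left out.

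Between classes, goblet-like minus progenitor-like B2m was at -0.17 with at least 20 cells and ran from -0.029 to 0.19 with 1 sample left out. Enteroendocrine-like H2-K1 was at -0.38 without mouse 1 and -0.28 on deposited values, and ran from -0.071 to 0.47, and B2m ran from -0.67 to 0.059. Tuft-like H2-Bl was at -0.10 with pseudocount 1, -0.91 without mouse 1, -0.30 on deposited values, -0.10 with the other naming and -0.59 without the sample block, and ran from -0.54 to 0.57. Settings that leave out mice or cells by depth or cluster, and the tuft-like comparison, were chosen after seeing the data. The 3 mice, the low level of H2-Bl and the few tuft-like and enteroendocrine-like cells limit the precision to the intervals given.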
